A study of Danio rerio with 12 samples.

Results

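Zebrafish moonshine (mon) embryos carry a mutation in trim33, the gene for the transcription cofactor TIF1γ, and are known for making almost no red blood cells. The comparison described here is that of mon embryos with their siblings at 30 hours post-fertilization (hpf), the stage when the red cells of siblings fill with hemoglobin. Its members were chosen by their labels: the 3 mon libraries of clutches 3, 4 and 9 and the 3 sibling libraries of the same clutches, which are 6 of the 12 libraries of the study. The other 6 hold the same pair of groups at 22 hpf. They enter the same statistical fit, where they add to the estimate of the spread. Their own values are given only where the stages are set side by side. Every clutch came from a mating of 1 pair of heterozygous mon fish, of which only 1 parent carried the drl:eGFP reporter, so an embryo had at most 1 reporter allele. From about 21 hpf the embryos were sorted by green fluorescence. Those with weak signal were harvested as mon, and the rest as siblings, which the labels give as wild-type/het, so the sibling pools can mix both genotypes. Each library is 1 pool of 30 whole, untreated embryos, and the mon allele is not named in the sources used here.

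Red cells of the early zebrafish embryo arise as a wave of primitive cells that enter the circulation together and then build up hemoglobin. Hemoglobin needs globin chains, iron brought in through the transferrin receptor and the mitochondrial importer mitoferrin, and heme, which is built by a chain of enzymes that begins and ends in the mitochondrion. The factors GATA1, TAL1 and KLF1 switch on this set of genes, and signals through the erythropoietin receptor keep the cells alive in mammals and fish.

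The 6 libraries held 20433157 to 23135676 reads assigned to genes. Levels are given in CPM, read counts scaled to normalized library sizes, always in the order of clutches 3, 4 and 9, and they are not corrected for gene length, so they are not compared between genes. A gene is called changed when its adjusted p is under 0.05 over 21778 tested genes in a fit that pairs the libraries by clutch (the clutch block). Names in capitals are those of the human orthologue, as the name table gives them, and several zebrafish copies can share such a name. Reads that match several near-identical copies can be left out by the counting or divided between the copies. The setting used for them is not given in the sources used here. This touches the globins most, and their levels can be too low.

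The mutated gene itself checks the labels only weakly at this stage. trim33 stood at 72.8, 72.8 and 71.7 CPM in mon embryos, against 75.5, 76.3 and 78.0 CPM in siblings. All 3 mon libraries were below all 3 sibling libraries, but the log2 fold change of −0.08 ± 0.05 (SE) did not pass the test (adjusted p = 0.614), and an exact two-sided permutation test gave p = 0.1, the smallest that 3 against 3 libraries allow. At 22 hpf the log2 fold change was −0.57, and the difference between the stages was 0.49 (adjusted p = 1.41e-05 with the clutch block, 0.415 without it).

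At 30 hpf, 673 of the 21778 tested genes were called (3.09%). Of these, 339 were lower in mon (1.56%) and 334 were higher (1.53%), but the sizes on the 2 sides were unlike. Among the lower genes, 14 stood at or under 1% of their sibling level and 101 at or under 50%, and 89 of these 101 were also called when the clutch pairing was left out. Among the higher genes, 236 of 334 were raised by no more than 1.5-fold, and 67 by 2-fold or more, of which 29 were also called without the pairing. Leaving out the pairing gave 172 calls in all (0.79%), 120 lower (0.551%) and 52 higher (0.239%), so that most small changes rest on the comparison within clutches. With the pairing kept but clutch 4 left out, 375 genes were called, 210 lower and 165 higher. The 12 lists of red cell genes held 77 of the 339 lower genes and 3 of the 334 higher ones, from 240 tested members. Of the 14 genes at or under 1%, 12 were in them, most of these globin copies. The lists were chosen with earlier results of these data known, so this split is no independent support. Counts of called list members below stand beside 1.56% lower and 1.53% higher over all tested genes. The direction was the same in all 3 clutches for 334 of the lower and 331 of the higher genes. The calls were made on differences within these clutches, so this agreement follows largely from the selection. Mon and sibling pools did not overlap for 290 of the 339 lower and 255 of the 334 higher genes. Over all 21778 tested genes the pools did not overlap for 2689 (12.3%), so groups that lie apart are common.

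**Figure D1:**
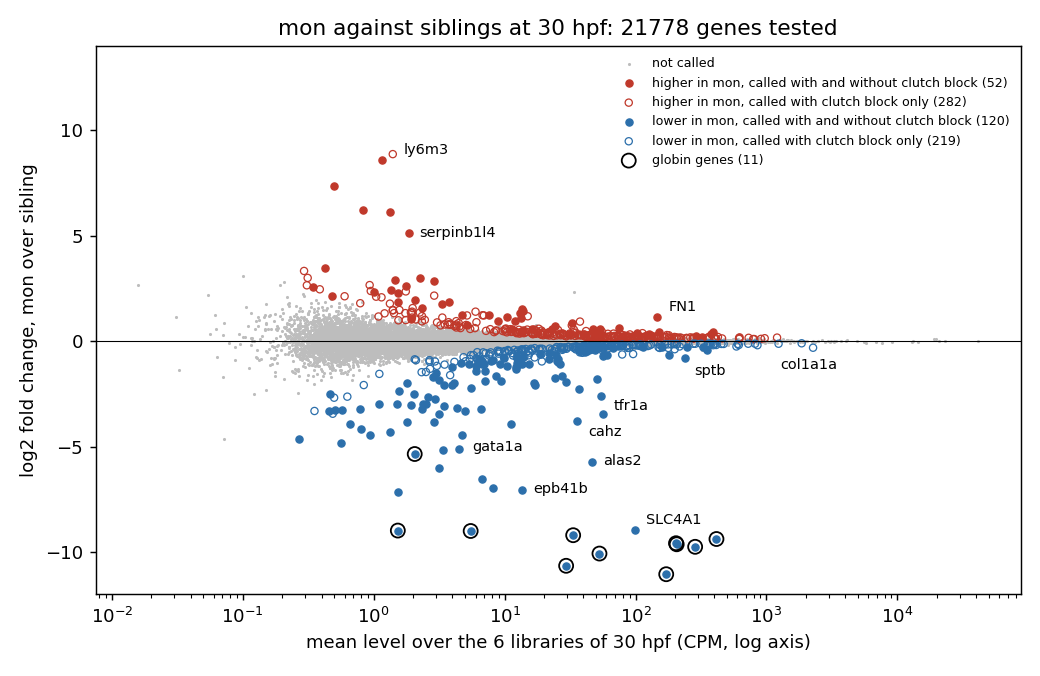
Log2 fold change of mon over sibling at 30 hpf (vertical axis) against the mean level over the 6 libraries in CPM (log horizontal axis), 1 point per tested gene. Filled points were called with and without the clutch block, open points with it only, and black rings mark the 11 globin genes, of which 10 lie at or below −8.98 and hbae5 at −5.35. The −8.98 is the fitted value of hbae4, which had no read in mon. Its bound at a floor of 3 counts is −6.05.

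All 11 globin genes that passed the filter on low counts fell, of 16 globin IDs in the table, and their median log2 fold change was −9.58, against 0.00 over all tested genes. The filter can admit a gene through its sibling level alone. Globins with hardly a read in mon embryos passed in that way, so a fall of all 11 was partly set by the filter. hbae3, an embryonic alpha globin, had 1.48, 1.18 and 1.06 CPM in mon embryos, against 833, 797 and 857 CPM in siblings. That is a log2 fold change of −9.38 ± 0.15 (adjusted p = 2.05e-07), with all 3 mon pools below all 3 sibling pools. hbbe3, an embryonic beta globin, had 0.296, 0.592 and 0.621 CPM in mon embryos, against 494, 354 and 388 CPM in siblings (−9.63 ± 0.11, adjusted p = 1.90e-34). The copy named HBE1 with the ID ENSDARG00000113599 had 0.493, 0.683 and 0.798 CPM in mon embryos, against 397, 675 and 639 CPM in siblings (−9.75 ± 0.09). These 3 genes each kept less than 0.2% of the sibling level. hbae4 was not read in any mon library and stood at 2.94, 2.91 and 3.33 CPM in siblings. Against a floor of 3 counts summed over the mon libraries it was at least 66.0-fold lower. hbae5 had the log2 fold change nearest to none, −5.35 ± 0.54, with a sibling level of 4.02 ± 0.459 CPM (SD, n = 3). Its mon pools stood at 8.41, 0 and 0% of the sibling pool of their clutch, so what remained was read in clutch 3 alone.

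Read by read, globins took 75, 83 and 79 counts of the mon libraries, against 63055, 55485 and 56499 counts of the sibling libraries. As a share of all gene counts this was 0.000358, 0.000368 and 0.000341% in mon embryos, against 0.273, 0.269 and 0.277% in siblings. Within each group the clutches were close together, although single HBE1 copies varied more between sibling clutches. In these pools of whole embryos, fewer red cells and less RNA per red cell cannot be told apart. The globins made up 2807 CPM of the summed 8134 CPM by which the 339 lower genes fell short, or 34.5%.

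Of the 10 genes for heme synthesis 9 fell, with a median log2 fold change of −1.69, and all 9 did so without the clutch block as well. alas2, the erythroid enzyme of the first and rate-limiting step, had 1.97, 2.00 and 1.24 CPM in mon embryos, against 93.7, 87.1 and 94.1 CPM in siblings (−5.72 ± 0.11, adjusted p = 1.28e-58). Its housekeeping counterpart alas1, which carries out the same step in other tissues, had 46.3, 49.2 and 49.3 CPM in mon embryos, against 48.9, 49.0 and 45.9 CPM in siblings (0.01 ± 0.06, adjusted p = 0.981). Mon pools thus sat far below sibling pools for the erythroid form, and the ranges overlapped for the general one.

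The later steps fell by smaller amounts. urod, which converts uroporphyrinogen, had 15.4, 14.4 and 16.5 CPM in mon embryos, against 87.8, 97.3 and 96.5 CPM in siblings (−2.60 ± 0.07). fech, the ferrochelatase that inserts the iron, had 11.9, 11.3 and 10.1 CPM in mon embryos, against 40.9, 33.4 and 37.5 CPM in siblings (−1.75 ± 0.09). The log2 fold changes of ppox and cpox, the enzymes just before it, were −1.87 and −1.63, and those of alad and uros, near the start, were both −1.10. For each of these genes and alas2 every mon pool was below every sibling pool, and the share that remained, as the ratio of the group means, ran from 1.9% for alas2 to 46.7% for alad.

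**Figure D2:**
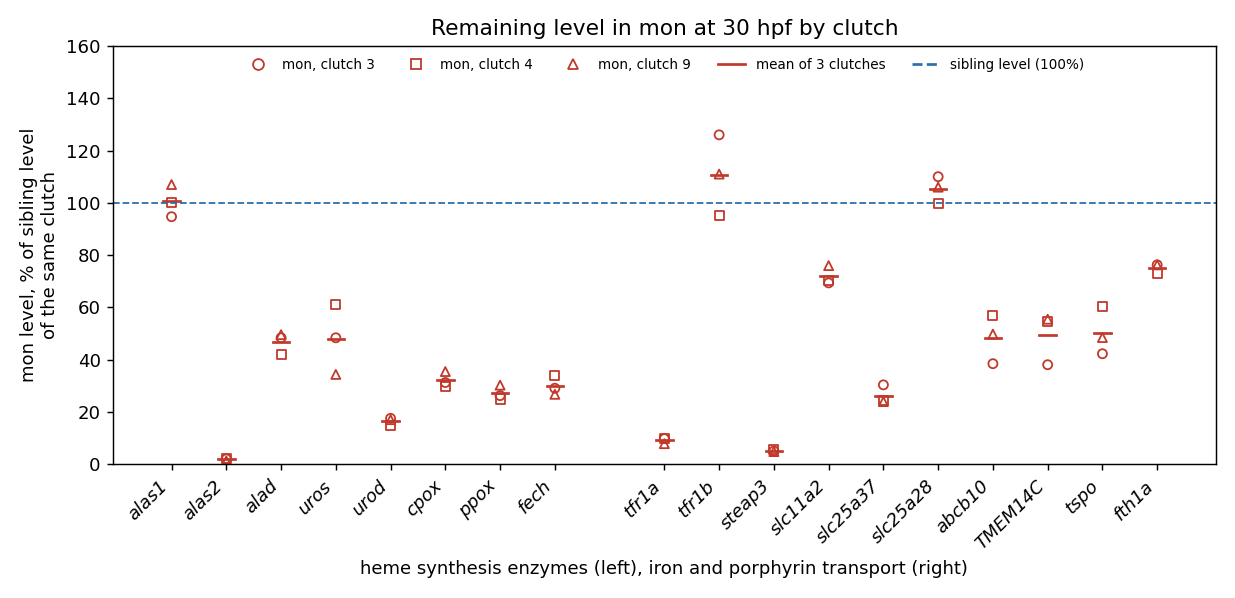
Level in each mon pool as a percentage of the sibling pool of the same clutch (vertical axis, dashed line at 100%) for heme synthesis enzymes and for genes of iron and porphyrin transport; bars are means of 3 clutches. alas1, tfr1b and slc25a28 lie around the line, while alas2, tfr1a and steap3 lie near the bottom.

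Of 13 tested genes for iron uptake and mitochondrial import, 7 fell, 5 of them also without the clutch block, and the median was −0.33. tfr1a, the transferrin receptor of red cells in zebrafish, had 9.70, 10.3 and 8.38 CPM in mon embryos, against 98.7, 104 and 106 CPM in siblings (−3.44 ± 0.08, adjusted p = 4.52e-57). Its copy tfr1b, used more widely, averaged 26.9 ± 1.97 CPM in mon embryos and 24.4 ± 2.15 CPM in siblings (SD, n = 3 each; log2 fold change 0.14, adjusted p = 0.556). slc25a37, mitoferrin 1, had 16.3, 10.1 and 10.5 CPM in mon embryos, against 53.7, 41.1 and 43.9 CPM in siblings (−1.92 ± 0.12). Its counterpart slc25a28, mitoferrin 2, averaged 28.0 ± 5.00 CPM in mon embryos and 26.6 ± 3.68 CPM in siblings (0.07, adjusted p = 0.819). For both erythroid genes the groups were apart, and for both counterparts they overlapped; the difference between a form and its counterpart was not tested. steap3, a ferrireductase of endosomes, fell by 4.16 ± 0.61 on the log2 scale from a low sibling level of 1.53 ± 1.18 CPM. slc11a2, the transporter DMT1 that carries iron out of endosomes, fell by 0.48 ± 0.07, and tfr2, the second transferrin receptor, by 1.09 ± 0.18.

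Of 16 tested genes for iron storage, export and sensing, 4 were lower (25%) and 1 was higher (6.25%), with a median of −0.06. Without the clutch block, or with clutch 9 left out, 2 were lower. The ferritin heavy chain gene fth1a had 283, 311 and 315 CPM in mon embryos, against 371, 426 and 413 CPM in siblings. Its groups did not overlap, and the log2 fold change was −0.41 ± 0.03 (adjusted p = 6.15e-17 with the clutch block, 0.0385 without it). FRRS1, a ferric reductase, fell by 1.09 ± 0.17. The ferritin-like fthl27 was higher by 0.26 ± 0.05 with the clutch block (adjusted p = 2.87e-05), and not without it (adjusted p = 1).

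Among 28 tested genes for heme and porphyrin transport and breakdown, 6 fell and the median was −0.12. Those called without the clutch block too, 5 of the 6, lay close together. abcb10, a mitochondrial transporter that stabilizes mitoferrin in mice, TMEM14C, which moves a heme precursor into mitochondria in mice, and tspo, a porphyrin-binding protein of the outer mitochondrial membrane, fell by 1.06, 1.04 and 1.00 on the log2 scale. The biliverdin reductases blvra and blvrb, which act on the product of heme breakdown, fell by 1.08 and 0.93. Every mon pool was below every sibling pool for each of these 5 genes.

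Of 29 tested erythroid transcription factors and cofactors, 12 fell and none rose, 9 of them also without the clutch block, with a median of −0.17. gata1a, the master regulator of the lineage, had 0.640, 0.455 and 0.133 CPM in mon embryos, against 8.05, 9.98 and 8.87 CPM in siblings (−4.46 ± 0.28, adjusted p = 2.17e-23). klf1, a direct activator of globin genes, had 0.246, 0.273 and 0.222 CPM in mon embryos, against 9.56, 8.22 and 8.21 CPM in siblings (−5.10 ± 0.35, adjusted p = 5.67e-18). The mon pools of both genes were all under 1 CPM and the sibling pools all above 8 CPM.

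The other 10 lower factors had log2 fold changes of −3.23 to −0.17. tal1, which specifies blood and vessel precursors, had 9.31, 4.28 and 7.49 CPM in mon embryos, against 16.8, 15.7 and 19.2 CPM in siblings (−1.32 ± 0.12). Its partner lmo2 fell by 1.00 ± 0.14, klf17, needed for primitive red cells in zebrafish, by 1.22 ± 0.11 and mllt3, a factor of blood stem cells in humans, by 0.57 ± 0.08 on the log2 scale. hemgn, an erythroid nuclear protein, and gfi1b, a repressor needed for red cells and platelets, had log2 fold changes of −3.23 and −2.08. nfe2, an activator of globin genes in mammals, and zfpm1, the GATA1 partner FOG1, had −0.61 and −0.36, and neither was called without the clutch block. The difference in size between these factors was not tested.

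Of 18 tested genes of erythropoietin receptor signalling, 2 were lower (11.1%) and 1 was higher (5.56%), with a median of −0.02. The receptor epor had 0.246, 0.137 and 0.754 CPM in mon embryos, against 6.41, 4.61 and 5.19 CPM in siblings (−3.83 ± 0.33, adjusted p = 6.17e-16). The hormone gene epoa was measured at 1.69 ± 0.118 CPM in mon embryos and 1.87 ± 0.667 CPM in siblings (−0.12 ± 0.29, adjusted p = 0.942), so the receptor was far apart between the groups while the ligand overlapped. jak2a, the kinase bound to the receptor, was the other lower gene, at −0.31 ± 0.07. Its call was not made without the clutch block (adjusted p = 0.341), nor with clutch 9 left out (−0.24, adjusted p = 0.083). The higher gene, a feedback inhibitor of cytokine signals named SOCS3 (ENSDARG00000026611), had 15.9, 15.0 and 12.1 CPM in mon embryos, against 6.85, 6.67 and 6.10 CPM in siblings (1.13 ± 0.14, adjusted p = 4.12e-10).

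**Figure D3:**
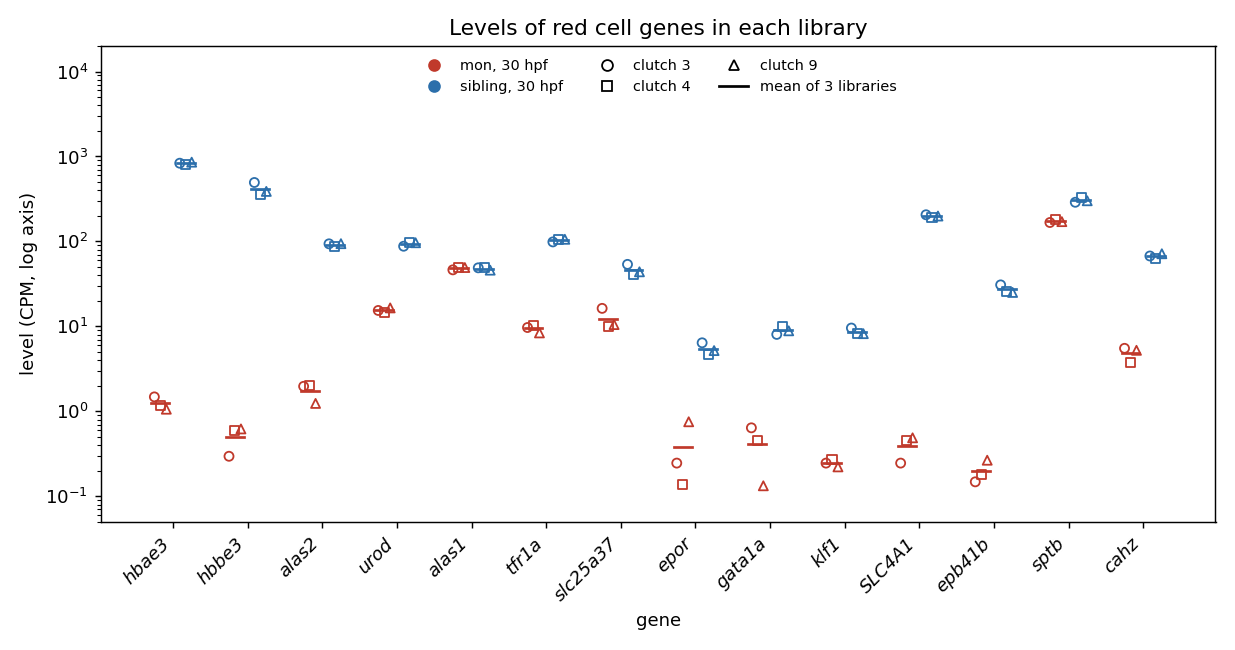
Levels in CPM (log vertical axis) of 14 red cell genes and counterparts in each of the 6 libraries; symbols give the clutch, colours the group and bars the mean of 3 libraries. The mon libraries lie below the sibling libraries for 13 of the genes, by the widest distance for the globins and SLC4A1, and overlap them for alas1.

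Genes of the red cell membrane fell by unequal amounts. Of 18 tested membrane skeleton genes 5 fell, and the median was −0.08. epb41b, for protein 4.1, which ties spectrin and actin to the membrane, had 0.148, 0.182 and 0.266 CPM in mon embryos, against 30.8, 25.7 and 25.1 CPM in siblings (−7.04 ± 0.23, adjusted p = 2.87e-44). By contrast sptb, the erythroid beta spectrin whose zebrafish mutants are anemic, had 167, 183 and 171 CPM in mon embryos, against 289, 330 and 301 CPM in siblings (−0.82 ± 0.04, adjusted p = 1.41e-29 with the clutch block, 0.0455 without it). The groups were apart for both genes, with 0.73% of the sibling level left for epb41b and 56.7% for sptb. The ankyrin copy ANK1 (ENSDARG00000059093) and the adducin add2, both of which link the skeleton to the membrane, fell by 0.70 ± 0.07 and 0.96 ± 0.13, and dmtn, for dematin, by 0.87 ± 0.18 (adjusted p = 0.000561 with the block, 0.0533 without it). The other ANK1 copy, ENSDARG00000074777, was at 97.1, 98.5 and 91.2% of the sibling level of its clutch.

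Of 26 tested membrane transporters and surface proteins 10 fell, 5 of them also without the clutch block, with a median of −0.19. The anion exchanger band 3, SLC4A1 (ENSDARG00000012881), had 0.246, 0.455 and 0.488 CPM in mon embryos, against 206, 190 and 199 CPM in siblings (−8.93 ± 0.12, adjusted p = 1.70e-67). Its mon level was 0.2% of the sibling level, the lowest remaining share of any tested red cell list gene outside the globins. The other SLC4A1 copy, ENSDARG00000024560, was at 80.1, 63.9 and 66.5% of the sibling level of its clutch. kel, of the Kell blood group, fell by 2.65 ± 0.35, and slc14a2, a urea transporter, by 1.96 ± 0.32 on the log2 scale. rhag, an ammonia channel of the Rh family in red cells, had 46.4, 44.5 and 49.3 CPM in mon embryos, against 68.4, 78.8 and 74.5 CPM in siblings (−0.66 ± 0.07).

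Of 32 tested cytosolic and antioxidant enzymes 3 fell (9.38%) and 1 rose (3.12%), with a median of 0.00. cahz, the carbonic anhydrase of zebrafish red cells, had 5.52, 3.73 and 5.23 CPM in mon embryos, against 67.4, 62.3 and 71.6 CPM in siblings (−3.80 ± 0.10, adjusted p = 1.85e-52). nt5c2l1, a nucleotidase, had 6.60, 7.19 and 6.52 CPM in mon embryos, against 29.0, 22.8 and 29.3 CPM in siblings (−1.99 ± 0.10, adjusted p = 2.81e-29). The AMP deaminase copy AMPD3 (ENSDARG00000032469) fell by 1.07 ± 0.12. The groups were apart for all 3. The other AMPD3 copy, ENSDARG00000005800, was at 63, 113 and 120% of the sibling level of its clutch. Of 35 tested genes of maturation, organelle clearance and chromatin 5 were lower (14.3%), with a median of −0.07, 3 with clutch 3 left out and 1 without the clutch block. That 1 was a copy of RFESD (ENSDARG00000058725), for an iron-sulfur protein, which had 0.197, 0.000 and 0.0887 CPM in mon embryos, against 7.03, 5.92 and 5.84 CPM in siblings (−5.99 ± 0.39). The other copy, ENSDARG00000042159, was at 70.5, 127 and 137% of the sibling level of its clutch and was not called (0.10 ± 0.36, adjusted p = 0.962).

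The globin gap was already wide before 30 hpf: at 22 hpf hbae3 averaged 4.10 ± 1.40 CPM in mon embryos and 113 ± 13.3 CPM in siblings (SD, n = 3 each). Some other red cell genes were closer together at that stage. Over all tested genes the mon effect differed between the stages for 105 (0.482%), and among the 339 lower genes for 44, of which 38 were further apart at 30 hpf and 6 at 22 hpf. The 339 were picked by their fall at 30 hpf, which by itself favours the side further apart at that stage, so no trend is read from this split. The smallest p among the 38 was that of cahz, which averaged 4.83 ± 0.958 CPM in mon embryos and 67.1 ± 4.64 CPM in siblings at 30 hpf, and 19.5 ± 5.47 CPM in mon embryos and 26.8 ± 8.26 CPM in siblings at 22 hpf (SD, n = 3 each). At 22 hpf the log2 fold change of cahz was −0.46 (adjusted p = 9.67e-05 with the clutch block), and mon was below sibling in each clutch. The difference of its log2 effects was −3.34 ± 0.13 (adjusted p = 4.75e-37 with the clutch block, 0.00473 without it). nt5c2l1 averaged 6.77 ± 0.369 CPM in mon embryos and 27.0 ± 3.69 CPM in siblings at 30 hpf, and 28.0 ± 2.11 CPM in mon embryos and 26 ± 2.05 CPM in siblings at 22 hpf. Its difference was −2.10 ± 0.14 (adjusted p = 4.62e-22 with the block, 8.90e-06 without it). For nt5c2l1 the later mon pools were thus the low ones of all 4 groups, while for cahz the later sibling pools were also the high ones.

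The heme genes urod and fech moved likewise in smaller measure. The log2 effect was −2.60 at 30 hpf and −1.46 at 22 hpf for urod, and −1.75 at 30 hpf and −0.78 at 22 hpf for fech (differences of −1.14 and −0.96, adjusted p = 1.42e-15 and 1.07e-07 with the clutch block, 8.47e-05 and 0.0161 without it). For tfr1a the effect was smaller at the later stage, with −3.44 at 30 hpf and −4.43 at 22 hpf (difference 0.98 ± 0.13, adjusted p = 1.36e-07 with the block, 0.00672 without it). Its level was 9.47 ± 0.999 CPM in mon embryos and 103 ± 3.71 CPM in siblings at 30 hpf, and 3.46 ± 0.523 CPM in mon embryos and 74.2 ± 4.27 CPM in siblings at 22 hpf. hif1al2, a gene named for its likeness to hif1a, which encodes the oxygen-sensing factor HIF-1α, had 0.0493, 0.137 and 0.355 CPM in mon embryos, against 6.41, 4.96 and 8.56 CPM in siblings at 30 hpf (−5.16 ± 0.39, adjusted p = 9.71e-19). At 22 hpf it was low in both groups, at 0.220 ± 0.164 CPM in mon embryos and 0.356 ± 0.155 CPM in siblings. The difference of its effects was −4.52 ± 0.79 (adjusted p = 0.000111 with the clutch block, 0.0683 without it, and 0.212 for a difference of −3.43 without clutch 11 of 22 hpf).

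tbx16l, a T-box factor of the early mesoderm, was chosen after its values were seen. It had 0.493, 0.728 and 0.443 CPM in mon embryos, against 3.29, 5.41 and 4.69 CPM in siblings at 30 hpf. The groups were apart, and the gene fell by 3.00 ± 0.23 on the log2 scale (adjusted p = 3.07e-19). At 22 hpf it averaged 21.1 ± 1.77 CPM in mon embryos and 21.7 ± 2.68 CPM in siblings. The difference of effects was −2.96 ± 0.26 (adjusted p = 2.04e-15 with the block, 9.25e-05 without it). Clutch 9 was sampled at both stages and the other clutches at 1 stage each, so the stage differences also set different matings side by side.

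**Figure D4:**
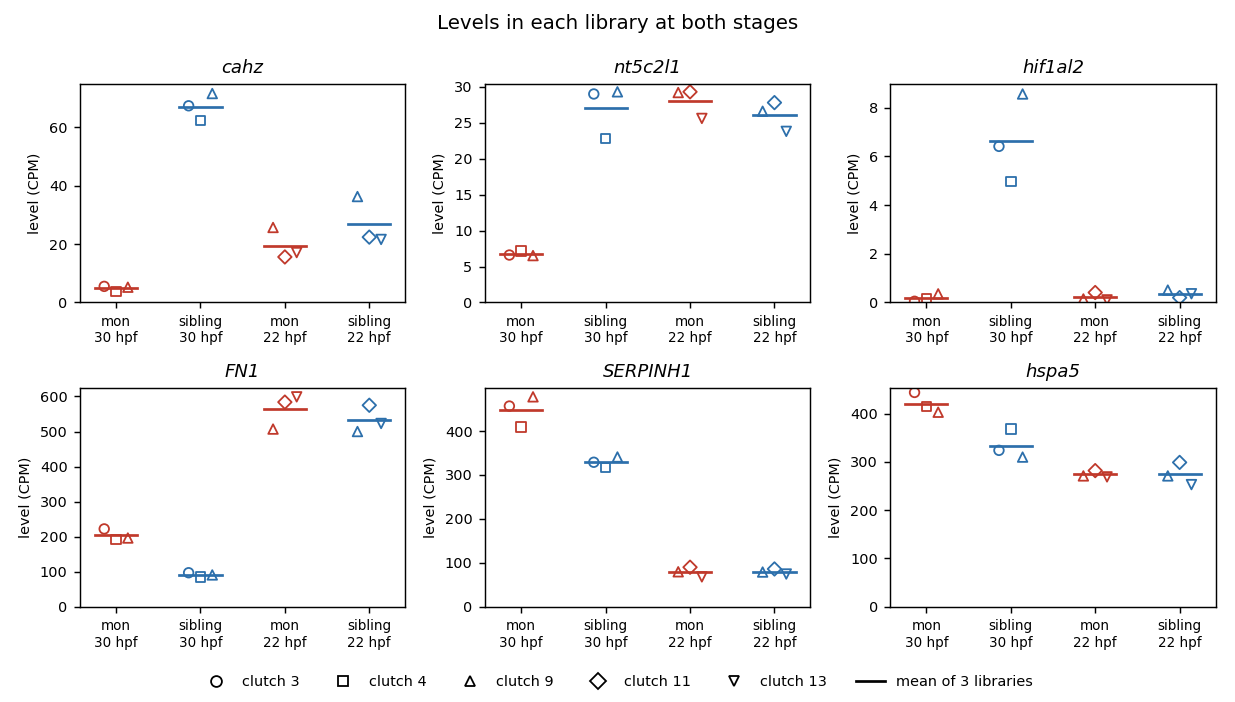
Levels in CPM of 6 genes in each library at 30 hpf and 22 hpf, with mon left of sibling at each stage; symbols give the clutch and bars the mean of 3 libraries. cahz, nt5c2l1 and hif1al2 are apart between mon and sibling at 30 hpf and overlap at 22 hpf, where cahz is still lower in mon in each clutch. FN1, SERPINH1 and hspa5 are raised in mon at 30 hpf.

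The embryos were sorted on a draculin reporter, so the draculin zinc finger genes, of which 4 of 5 fell, are not independent of the way the groups were made. How far this also holds for the other red cell genes was not tested. drl had 0.640, 1.32 and 0.798 CPM in mon embryos, against 7.79, 9.27 and 10.3 CPM in siblings (−3.31 ± 0.22). blf, drll.1 and drll.2 had log2 fold changes of −1.42, −3.94 and −4.63, and the median of the list was −3.31.

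Among the lists of other blood cells, that of thrombocyte genes, which includes fibronectin, had the highest share of calls. Of 9 tested, 3 were lower (33.3%) and 2 higher (22.2%), with a median of −0.09. Without the clutch block 2 were lower and 1 higher. Over all tested genes 1.56% were lower and 1.53% higher with the block. The 2 higher list members with the block were the copies of the matrix gene FN1 described further on. The lower ones included gp9 and gp1bb, subunits of the receptor for von Willebrand factor, at −3.26 ± 0.67 and −2.36 ± 0.40. Both were read at low mean sibling levels, 1.04 and 2.59 CPM, and gp1bb lies near trim33. The third lower one was ITGB3 (ENSDARG00000056767), at −0.38 ± 0.08 (adjusted p = 0.00114 with the clutch block, 0.761 without it). tubb1, the beta tubulin of platelets and of the red cells of birds, had 0.0493, 0.137 and 0.222 CPM in mon embryos, against 12.7, 12.9 and 14.3 CPM in siblings (−6.53 ± 0.32, adjusted p = 2.37e-31). Of 12 tested genes of blood stem and hemogenic cells 1 fell, ikzf1, a lymphoid factor that had 0.640, 0.364 and 0.266 CPM in mon embryos, against 3.34, 2.96 and 4.08 CPM in siblings (−3.03 ± 0.33), and the median was −0.12. In neither gene did the groups overlap. Of 31 tested genes of macrophages and general leukocytes 1 was lower and 2 higher (median −0.07), and of 11 genes of granulocytes and mast cells 1 was higher (median 0.03). None of these 4 was called without the clutch block. The higher member of the granulocyte list was c3a.1, at 0.18 ± 0.03. EPX, a granulocyte gene given further on and chosen after its values were seen, is not in that list. It had a log2 fold change of −0.54 (adjusted p = 0.00341 with the block, 0.784 without it). Of 36 endothelial genes 1 was lower and none higher (median 0.01), and 2 of 18 blood flow genes were higher (median 0.09), in both lists none without the block. cdh5, the cadherin of vessel walls, stood at 57.7, 55.2 and 55.4 CPM in mon embryos, against 56.5, 53.8 and 57.4 CPM in siblings (0.00 ± 0.06).

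On the raised side the gene with the smallest adjusted p was a copy of fibronectin, FN1 (ENSDARG00000006526), a matrix protein that cells migrate on. It had 222, 192 and 196 CPM in mon embryos, against 96.9, 84.4 and 90.6 CPM in siblings (1.16 ± 0.04, adjusted p = 7.54e-44). At 22 hpf it averaged 563 ± 49.3 CPM in mon embryos and 533 ± 38.5 CPM in siblings, and the difference of the effects was 1.09 ± 0.05 (adjusted p = 2.64e-31 with the clutch block, 0.000167 without it). Its level was thus lower at 30 hpf than at 22 hpf in both groups, and less so in mon. The other copy, ENSDARG00000019815, had 213, 207 and 196 CPM in mon embryos, against 194, 188 and 184 CPM in siblings, and was higher by 0.12 ± 0.04 with the block (adjusted p = 0.0367). It was not called without the block (adjusted p = 0.994) nor with any clutch left out (adjusted p = 0.247, 0.262 and 0.0734 without clutch 3, 4 and 9).

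SERPINH1 (ENSDARG00000019949), the collagen chaperone HSP47, had 457, 409 and 478 CPM in mon embryos, against 329, 317 and 341 CPM in siblings (0.44 ± 0.04, adjusted p = 5.00e-17 with the clutch block, 0.0252 without it). hspa5, the chaperone BiP of the endoplasmic reticulum, had 444, 415 and 403 CPM in mon embryos, against 324, 368 and 310 CPM in siblings (0.33 ± 0.04, adjusted p = 7.58e-08 with the block, 0.0237 without it). The groups were apart for both. Of 24 tested genes of oxidative stress and heat shock 7 rose (29.2%) and none fell, with a median of 0.07. The shares over all tested genes were 1.53% higher and 1.56% lower. Without the block 3 of the list rose, among them HSP90AA1 (ENSDARG00000024746) at 0.43 ± 0.06 and gclm at 0.57 ± 0.08. gclm, for a subunit of the enzyme that starts glutathione synthesis, lies near trim33. Of 27 tested genes of the unfolded protein and integrated stress response 7 were higher (25.9%) and 1 lower (3.7%), with a median of 0.09. With clutch 3 left out 4 were higher, and without the block 1. Of the 18 p53 target genes none was called with or without the block (median 0.04).

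The next 4 genes, for proteins of cytokine signalling and of the AP-1 factor, were chosen after their values were seen. il6st, the receptor subunit gp130, had 81.1, 97.2 and 95.8 CPM in mon embryos, against 54.3, 60.4 and 63.0 CPM in siblings (0.62 ± 0.06, adjusted p = 7.63e-16). A copy of JUNB (ENSDARG00000104773), a subunit of the AP-1 factor, had 20.2, 20.5 and 19.5 CPM in mon embryos, against 6.05, 8.72 and 6.25 CPM in siblings (1.53 ± 0.12, adjusted p = 2.61e-17). The AP-1 subunit gene fosl2 rose by 0.97 ± 0.12, and stat3, the factor activated by gp130, by 0.37 ± 0.06 on the log2 scale (adjusted p = 8.31e-06 with the block, 0.0362 without it). In all 4 genes the mon pools were above the sibling pools.

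The largest folds upward were seen in genes of low level. ly6m3 and ly6m2, of the Ly6 family of surface proteins, were not read in any sibling library at 30 hpf, nor at 22 hpf. Both passed the filter on low counts through their mon levels alone, so their rise was partly set by the filter. ly6m3 had 3.50, 3.10 and 1.82 CPM in mon embryos, at least 58.2-fold higher than a floor of 3 counts summed over the sibling libraries (adjusted p = 1.49e-14 with the clutch block, 0.0731 without it). ly6m2 had 4.29, 1.82 and 0.798 CPM in mon embryos and was at least 47.8-fold higher. serpinb1l4, a protease inhibitor gene, had 3.50, 3.32 and 3.99 CPM in mon embryos, against 0.0890, 0.15 and 0.0504 CPM in siblings (5.13 ± 0.49). PLAU, for the protease urokinase, had 5.22, 4.14 and 5.85 CPM in mon embryos, against 1.65, 0.351 and 0.252 CPM in siblings (2.85 ± 0.33). Of the siblings, only the pool of clutch 3 was above 1 CPM for PLAU, and it stayed below every mon pool. The pancreatic amylase gene amy2a was higher by 6.20 ± 0.83 on the log2 scale, a value that rests on 1 read over the sibling libraries at 30 hpf. A cytochrome c heme lyase copy, HCCS (ENSDARG00000095776), was higher by 2.63 ± 0.38, and the retinol saturase gene RETSAT by 2.44 ± 0.42.

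chrng, the gamma subunit of the acetylcholine receptor of embryonic muscle, was also chosen after its values were seen. It had 20.2, 20.2 and 19.7 CPM in mon embryos, against 8.81, 6.02 and 7.86 CPM in siblings (1.41 ± 0.11, adjusted p = 2.41e-19). At 22 hpf it averaged 29.5 ± 2.83 CPM in mon embryos and 27.4 ± 4.80 CPM in siblings, and the difference of the effects was 1.29 ± 0.14 (adjusted p = 3.12e-11 with the block, 0.00783 without it). As with FN1, its level was lower at 30 hpf than at 22 hpf in both groups, and the mon pools were nearer to their 22 hpf level.

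The actinodins, structural proteins of the fin fold that zebrafish larvae make in skin, fell in mon. and1 had 18.8, 22.7 and 26.7 CPM in mon embryos, against 74.9, 88.7 and 71.1 CPM in siblings (−1.79 ± 0.09, adjusted p = 2.07e-23). and2 had 6.75, 7.24 and 5.59 CPM in mon embryos, against 29.4, 32.1 and 20.9 CPM in siblings (−2.06 ± 0.14), and and3 had 0.690, 0.592 and 0.887 CPM in mon embryos, against 6.85, 7.12 and 4.43 CPM in siblings (−3.05 ± 0.31). No mon pool reached a sibling pool for any of them. They belong to a list of 28 tested genes of epidermis and ionocytes, of which 4 were lower (14.3%) and 2 higher (7.14%), with a median of 0.01. The shares over all tested genes were 1.56% lower and 1.53% higher. The fourth lower member was cldni, a claudin of cell junctions, at −0.16 ± 0.04 (adjusted p = 0.0243).

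In the lists of other tissues and of metabolism the share of members called differed from list to list, beside 1.56% lower and 1.53% higher over all tested genes. Of 47 tested genes of synaptic adhesion and axon guidance 1 was lower and 3 higher (median −0.07). The 3 were LRRTM4 (ENSDARG00000106522), for a synaptic adhesion protein, with 6.40, 4.46 and 6.96 CPM in mon embryos against 1.82, 1.70 and 1.26 CPM in siblings (1.88 ± 0.24), the guidance cue SLIT1 (ENSDARG00000099446) at 0.59 ± 0.06 and the receptor phosphatase PTPRD (ENSDARG00000104937) at 0.56 ± 0.07. Of 38 neuronal genes 2 were lower and 1 higher (median −0.07), the higher being neff2, at 1.78 ± 0.23. Skeletal muscle had 4 lower (12.5%) and 1 higher of 32 (median −0.04), pigment cells 3 lower (12.5%) and 1 higher of 24 (median −0.04), pronephros 1 lower of 21 (median −0.05), and the yolk syncytial layer 1 lower and 1 higher of 19 (median 0.02), none of them without the clutch block. Of 20 heart muscle genes none was called (median −0.02). The bone and skin collagen gene col1a1a had 2019, 1940 and 2128 CPM in mon embryos, against 2556, 2522 and 2451 CPM in siblings (−0.31 ± 0.03, adjusted p = 4.66e-13 with the block, 0.954 without it).

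Of 22 genes of the TCA cycle 2 were lower (9.09%) and 1 higher (median 0.01), and of 16 genes of pyrimidine synthesis 2 were higher (12.5%, median −0.02), none without the clutch block. None of 14 genes of coenzyme Q synthesis (median 0.02) and none of 31 transcription elongation factors (median −0.03) was called with or without the block. Of 44 hypoxia genes 3 were lower and 2 higher (median −0.03); besides hif1al2 the lower ones included NDRG1 (ENSDARG00000032849), with 35.6, 34.5 and 38.4 CPM in mon embryos against 49.5, 45.8 and 53 CPM in siblings (−0.45 ± 0.07, adjusted p = 1.26e-06 with the block, 0.0476 without it).

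**Figure D5:**
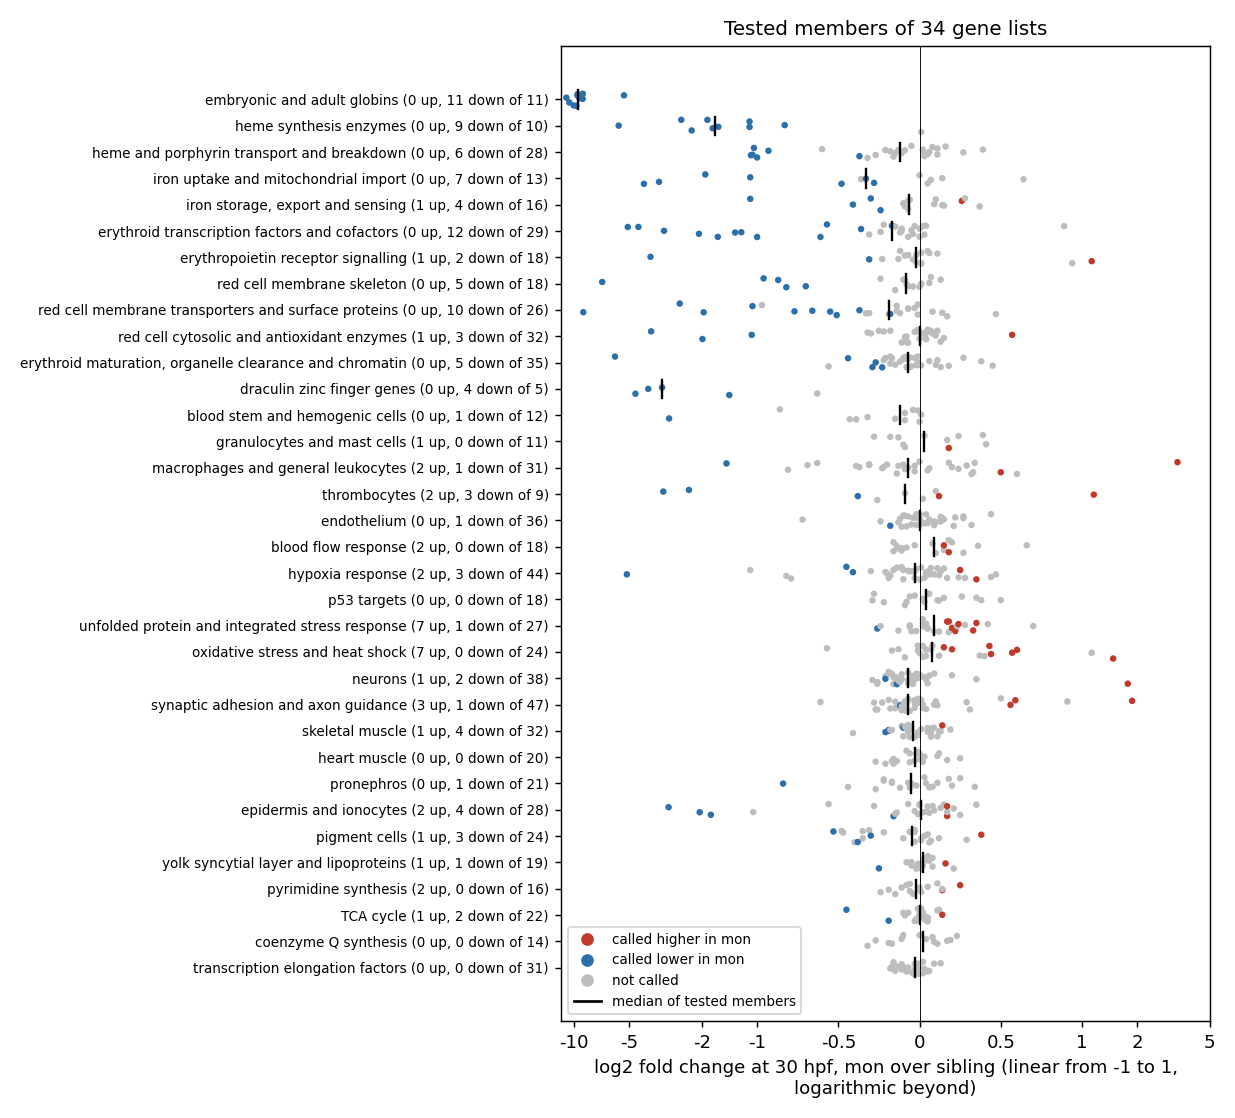
Log2 fold change at 30 hpf of mon over sibling (horizontal axis, linear from −1 to 1 and logarithmic beyond) for each tested member of 34 gene lists; coloured points were called, grey points were not, and black bars are list medians. The globin, draculin and heme synthesis lists have their medians well left of 0, at −9.58, −3.31 and −1.69, and the others lie between −0.33 and 0.09.

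Genes placed close to trim33 tend to be inherited with the mutant allele. Within 100 genes on either side of it in the gene order of the RefSeq assembly GRCz12tu, which is not the build of the counts, 18 of 120 tested genes were called (15%), 3 lower and 15 higher, against 468 of all 14037 placed genes (3.33%). Without the clutch block 5 of the 120 (4.17%) and 117 of the 14037 (0.834%) were called. gclm and gp1bb are among the called ones, and the part of linkage to trim33 in their change was not tested.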

How the data were processed

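RNA was measured in 12 libraries of pooled whole embryos (3 mon and 3 sibling pools at each of 30 and 22 hpf). The authors deposited raw read counts for 32520 Ensembl gene IDs, made from rRNA-depleted directional libraries per the labels' protocols. The submitters' processing notes list HTSeq, TopHat2 2.0.11, Cufflinks 2.2.1, cutadapt and FastQC and the build GRCz11, without roles. Annotation release and strand setting: not given in the sources used here. The protocol adds ERCC spike-ins, which were not used here.

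Counts were tested with edgeR 4.0.16 in R 4.3.3 (TMM, filterByExpr over the 4 groups, robust quasi-likelihood F test, Benjamini-Hochberg adjusted p under 0.05 over 21778 genes). All 12 libraries entered 1 fit with a block for each of the 6 clutch and stage pairs and a mon effect per stage. This leaves 4 residual degrees of freedom. Each SE was taken as the log2 fold change divided by the root of the F statistic. For very large falls with few mon counts, such an SE is too small. Clutch numbers pair the libraries, since the labels say a clutch is 1 mating: deviations of same-clutch pools correlated at 0.509 to 0.69, those of different clutches at no more than −0.193 (10884 genes). No replicates were duplicates (chi-square per gene 6.46 to 10). Totals of 20433157 to 23135676 at 30 hpf and the 3 clutches set the precision. SEs rest on the spread estimated in the fit and SDs on the 3 pools of a group, while floors cover counting error only.

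Members and the 34 gene lists were chosen with earlier results of these data known. Genes were named by a rule: trim33; among called genes of 1 direction in all 3 clutches, at least 1 CPM and a descriptive symbol, the 15 of largest fold and 8 of largest CPM difference each way, from which the report takes those kept when a clutch is left out; up to 4 of smallest p per list; and any member of the 12 red cell lists. Exceptions are named as such, and some genes are counted but not reported here by name. Names came from a table that covers 89.8% of the IDs. Alternatives were no clutch block, the 30 hpf libraries alone, RLE size factors, DESeq2 1.42.0, limma-voom 3.58.1, no filter, and each clutch left out. A planned promoter motif search was not run, since no promoter sequences were used here.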

Additional observations from a re-analysis of the deposited data

Results flagged for a closer look

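For 39 of the genes named or in the red cell lists and reported here, the mon effect at 30 hpf differed from that at 22 hpf by a test of the difference itself, with the clutch block. Values below are differences of the log2 fold changes, 30 hpf minus 22 hpf, and no explanation of them was tested. Clutch 9 alone was sampled at both stages. The genes were taken from those called at 30 hpf, which by itself favours larger effects at that stage.

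In all 10 alternative fits, the one without the block among them, 14 genes kept the call. cahz (−3.34), nt5c2l1 (−2.10), tbx16l (−2.96), urod (−1.14) and fech (−0.96) were further below siblings at 30 hpf. So were the globins hbbe3 (−3.28), hbae1.2 (−5.71) and the HBE1 copy ENSDARG00000087390 (−5.23). FN1 (1.09, ENSDARG00000006526) and chrng (1.29) were raised at 30 hpf, and their log2 fold changes at 22 hpf were 0.08 and 0.12. tfr1a (0.98) was below siblings at both stages and less so at 30 hpf, and PTPRD (−0.87) was above siblings at both and less so at 30 hpf. The actinodin and3 (−5.24) was below siblings at 30 hpf, and at 22 hpf it was near the limit of reading, at 0.325 ± 0.161 CPM in mon embryos and 0.0679 ± 0.0786 CPM in siblings.

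EPX, for a peroxidase of granulocytes, was chosen after its values were seen and had the largest positive difference of the 39 (4.22). It averaged 12.7 ± 3.04 CPM in mon embryos and 18.5 ± 4.02 CPM in siblings at 30 hpf, against 0.180 ± 0.0719 CPM in mon embryos and 5.10 ± 1.62 CPM in siblings at 22 hpf (SD, n = 3 each). Its log2 fold change at 30 hpf was −0.54 (adjusted p = 0.00341 with the block, 0.784 without it, 0.0734 without clutch 4 and 0.115 without clutch 9), and −4.76 at 22 hpf.

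In no fit but the one without the block, 9 genes lost the call: the HBE1 copy ENSDARG00000113599 (−4.67), sptb (0.66), SERPINH1 (0.46), AQP1 (1.07), fth1a (−0.28), il6st (0.44), hspa5 (0.33), tspo (−0.75) and cpox (0.64).

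In 1 or more other fits, 16 lost it: hif1al2 (−4.52), hsp90b1 (0.29), P4HA1 (−0.47), col5a1 (−0.22), hbae3 (−4.58), ANK1 (−0.53), alas2 (−1.15), fosl2 (0.78), SLC4A1 (−2.58), znfl2a (−0.75), serpinb1l4 (3.43), jak2a (−0.39), col1a1a (−0.17), calr3b (0.20), JUNB (0.68) and hemgn (−1.58).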

How the results depend on the processing

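Counts of calls depended on the clutch pairing. Against 673 calls (334 higher, 339 lower), no replicate block gave 172 (52 higher, 120 lower), the 6 libraries of 30 hpf with no replicate block 192 (56 and 136), and DESeq2 with the block 330 (143 and 187). Leaving out each clutch in turn gave 375 to 572 calls, 165 to 294 higher and 210 to 278 lower; the lowest counts were without clutch 4. Lower members of the red cell lists (77) numbered 68 to 70 in these fits, and globins (11), heme enzymes (9), membrane skeleton (5) and cytosolic enzymes (3) did not change. Without the block, in all 12 or in the 6 libraries, iron storage had 2 lower members in place of 4 and erythropoietin signalling 1 in place of 2. Maturation had 1 in place of 5, the unfolded protein response 1 higher in place of 7, and heat shock 3 higher in place of 7. Membrane transporters had 5 in place of 10 in the 12 libraries. In the 6 libraries 3 draculin genes were tested, and 3 were called with the block and 2 without it, in place of 4 of 5. With DESeq2 iron storage had 2, maturation 2 and the unfolded protein response 3. Leaving out a clutch gave 2 to 4 for iron storage, 1 to 2 for erythropoietin signalling, 3 to 5 for maturation and 4 to 6 for the unfolded protein response. The stage difference, whose alternatives were chosen after seeing the data, had 105 calls, 19 with no replicate block, 52 with DESeq2 and 72 to 130 with a clutch left out.

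Of 155 named or red cell genes called, 64 lost the call with no replicate block, 60 with the 6 libraries and no block, 32 with DESeq2, 2 with the 6 libraries and the block, 1 with limma-voom, and 25, 32 and 19 without clutch 3, 4 and 9. None lost it with RLE size factors or no filter, and none of these alternatives turned a direction. For trim33 the log2 fold change stayed between −0.09 and −0.06 with a clutch left out. The cause of these losses was not tested. With 3 clutches and 4 residual degrees of freedom, small changes rest on the pairing. A pool of whole embryos gives no level per cell, and genes near 1 CPM are read from few counts.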
